A study of Mus musculus with 4 samples.

Results

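The TGF-beta ligands, their receptors and the proteins that hold the ligands in a latent store were followed across 4 libraries of embryonic mouse dermis. The set has 10 members out of 32411 gene units, found by gene symbol with no threshold on a measured value: the ligand genes Tgfb1, Tgfb2 and Tgfb3, the activin subunit gene Inhba, the receptor genes Tgfbr1, Tgfbr2 and Tgfbr3, and the latency protein genes Ltbp1, Ltbp3 and Ltbp4. All 10 were found in all 4 libraries.

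The study sorted dermal cells of Axin2-LacZ mouse embryos by fluorescence, to ask how Wnt-responsive mesenchyme differs between a skin that makes sweat glands and a skin that makes hair. Axin2 is induced by Wnt/beta-catenin signals and feeds back on them, and LacZ at this gene reports the signal. Ventral foot skin came from E17.5 embryos and dorsal back skin from E14.5 embryos, and each skin gave 1 library labelled Axin2-pos and 1 labelled Axin2-neg. All 4 groups carry the same reporter, no group lacks it, and the sources used here do not give the gates of the sort, the pooling of embryos, their litter or their sex. Each group is 1 library, so no difference below has a replicate check and no test or p-value could be had. Site and stage changed together between foot and back and cannot be told apart.

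TGF-beta is made as a precursor whose cleaved propeptide stays wrapped around the ligand and keeps it silent. Latent TGF-beta binding proteins, encoded by the Ltbp genes, tether this complex to fibrillin and fibronectin fibres, from which integrins and proteases release it. Free ligand is bound by the type II receptor TGFBR2, which recruits and activates the type I receptor TGFBR1, and SMAD2 and SMAD3 carry the signal to the nucleus. Betaglycan, the product of Tgfbr3, is a co-receptor that presents TGF-beta2 in particular, and it also binds inhibin. In skin the pathway is known for control of fibroblast matrix and of hair follicle growth.

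The promoters of Tgfb1, Tgfb2 and Ltbp3 are shown because Tgfb2 and Ltbp3 were higher in both foot libraries while Tgfb1 was at most a minor ligand there. The sequences are RefSeq's on GRCm38.p6, each 300 bases long, from 250 bases before the start site to 50 bases after it. The letters searched on both strands were TATAAA (the TATA box), CCAAT (the CCAAT box), GGGCGG (the GC box), TGACGTCA (the cAMP response element), CACGTG (an E-box), CTTTGAT (a TCF/LEF site), GTCTAGAC (a SMAD palindrome) and TGACTCA (an AP-1 site). Capitals mark the matches.
Tgfb1, chr7:25686752-25687051, plus strand: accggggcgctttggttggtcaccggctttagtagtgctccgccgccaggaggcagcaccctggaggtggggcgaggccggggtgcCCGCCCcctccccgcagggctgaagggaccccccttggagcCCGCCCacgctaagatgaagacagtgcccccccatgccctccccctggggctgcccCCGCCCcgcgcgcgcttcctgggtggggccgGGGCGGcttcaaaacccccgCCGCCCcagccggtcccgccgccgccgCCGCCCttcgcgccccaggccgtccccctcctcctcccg
Tgfb2, chr1:186705940-186706239, minus strand: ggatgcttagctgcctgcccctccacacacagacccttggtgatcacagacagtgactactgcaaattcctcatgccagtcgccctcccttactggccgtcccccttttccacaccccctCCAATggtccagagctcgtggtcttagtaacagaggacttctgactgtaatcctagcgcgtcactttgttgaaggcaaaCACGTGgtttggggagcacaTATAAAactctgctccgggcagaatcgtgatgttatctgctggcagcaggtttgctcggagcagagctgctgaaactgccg
Ltbp3, chr19:5740650-5740949, plus strand: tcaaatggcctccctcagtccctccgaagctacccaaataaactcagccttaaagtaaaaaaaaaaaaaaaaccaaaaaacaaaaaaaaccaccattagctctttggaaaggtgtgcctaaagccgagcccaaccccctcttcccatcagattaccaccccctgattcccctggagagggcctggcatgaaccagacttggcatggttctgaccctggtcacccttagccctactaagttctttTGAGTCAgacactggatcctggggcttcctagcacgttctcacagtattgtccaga

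The ligand promoters differ in these letters. Tgfb1 holds 6 GC boxes in a window of 77% G and C, and no TATAAA. Tgfb2 holds TATAAA at -31, CACGTG at -51 and CCAAT at -130, counted from the start site to the first base of the match, in a window of 54.3% G and C. Ltbp3 holds TGAGTCA at -6, the AP-1 letters read on the other strand, in a window of 48% G and C. Over 32851 RefSeq promoters of the same length, TATAAA is found in 13.6%, CCAAT in 37.4%, GGGCGG in 35.7%, CACGTG in 7.15% and TGACTCA in 5.20%. GTCTAGAC, in 0.213% of all promoters, and CTTTGAT, in 3.73%, are in none of the 12 promoters listed for 8 of the 10 members. TGACGTCA, found in 1.79% of all promoters, occurs in an Ltbp1 promoter at -73. A match here is a run of letters, not a measured binding site.

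Levels are FPKM, fragments per kilobase of transcript, relative to the mapped fragments of the library, as the authors deposited them, each with the authors' lower and upper bound. The bounds cover counting and read assignment within a library, and their confidence level is not stated in the files. Among units of at least 5 FPKM, 12.1% to 21.9% per library had an FPKM outside its own bounds, so the bounds are an uncertain guide to error, but no value of a member lay outside. Some list genes named below had values outside, among them Fstl1 and Mmp2 in the foot library labelled Axin2-neg. Ratios were taken after dividing each library by a factor, because the median gene lay apart between libraries as deposited, by -0.25 on the log2 scale in the foot (labelled Axin2-pos against Axin2-neg), 0.16 in the back, 0.28 between foot and back for the Axin2-pos label and 0.70 for the Axin2-neg label. A ratio is log2((scaled FPKM + 1)/(scaled FPKM + 1)), which understates differences of low genes, and its interval comes from the authors' bounds. A gene counts as higher or lower when this ratio is at least 1 in size, a 2-fold difference, and the larger deposited FPKM is at least 5. The foot libraries were the less precise ones: the bounds reached a median of 24.8% and 15.1% of the FPKM to either side of their middle in the foot (labelled Axin2-pos and Axin2-neg), against 9.37% and 10.3% in the back.

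The sort was checked on Axin2 itself. Its level was 9.65 FPKM (bounds 7.10 to 12.5) in the foot library labelled Axin2-pos and 12.9 FPKM (10.2 to 15.3) in the one labelled Axin2-neg, a log2 ratio of -0.14 (interval -0.60 to 0.31). In the back it was 4.49 FPKM (3.89 to 5.09) in the library labelled Axin2-pos and 3.13 FPKM (2.63 to 3.64) in the one labelled Axin2-neg, a log2 ratio of 0.27 (0.03 to 0.52). The Axin2 transcript was therefore lower under the foot label Axin2-pos than under Axin2-neg, within the bounds, and every direction between the foot libraries below follows labels that it does not bear out.

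Dermal fibroblast markers were present in all 4 libraries: each of 11 fibroblast markers reached at least 1 FPKM and their sum lay between 3225 and 7292 FPKM. Markers of other cells differed between libraries. Mast cell markers (6 genes, led by Cma1, Cpa3 and Tpsb2) summed to 265 FPKM in the foot library labelled Axin2-neg and 2.17 FPKM in the one labelled Axin2-pos, and to 85.7 and 25.4 FPKM in the back libraries labelled Axin2-neg and Axin2-pos. Of 12 leukocyte and macrophage markers, summed levels were 0.788 and 2.71 FPKM in the foot (labelled Axin2-pos and Axin2-neg), and 4.15 and 23.6 FPKM in the back. Of 8 endothelial markers 6 were listed at 0 in each foot library and none in the back, where they summed to 7.94 and 6.57 FPKM. Of 7 keratinocyte markers with a value, 4 and 6 were listed at 0 in the foot libraries labelled Axin2-pos and Axin2-neg, and the sums were 7.68, 1.02, 48.3 and 25.6 FPKM in the order foot positive, foot negative, back positive, back negative. Bulk libraries cannot tell fewer cells of a type from less RNA per cell. Whether these cells contributed to the differences of the members was not tested.

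**Figure D1:**
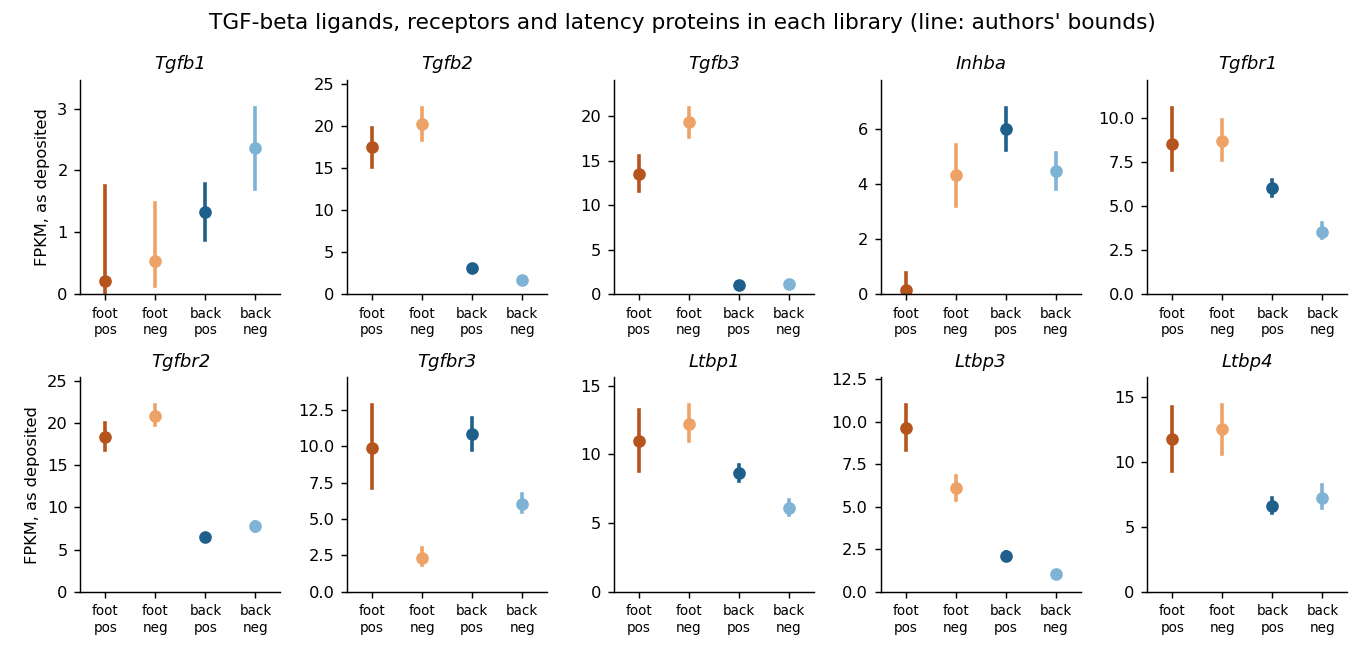
Deposited FPKM of each member (y axis, from 0, with its own range per gene) in the 4 libraries (x axis), with the authors' bounds as lines. Tgfb2, Tgfb3, Tgfbr1, Tgfbr2, Ltbp1, Ltbp3 and Ltbp4 lie higher as deposited in both foot libraries than in both back libraries, Inhba is near 0 in the foot library labelled Axin2-pos, and Tgfbr3 is lowest in the foot library labelled Axin2-neg.

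Tgfb2 encodes a ligand that mesenchyme makes during skin and heart development. It lies at chr1:188447065-188529871 (mm9, as are all positions of genes below). Its level was 17.4 FPKM (bounds 15.1 to 19.8) in the foot library labelled Axin2-pos, 20.2 FPKM (18.3 to 22.1) in the foot library labelled Axin2-neg, 3.05 FPKM (2.64 to 3.45) in the back library labelled Axin2-pos and 1.63 FPKM (1.30 to 1.96) in the back library labelled Axin2-neg. Both foot values lay above both back values, and no bounds of a foot library reached those of a back library. Foot exceeded back 4.64-fold in scaled FPKM for the Axin2-pos label, a log2 ratio of 1.93 (interval 1.69 to 2.17), and 7.38-fold for the Axin2-neg label, a log2 ratio of 2.41 (2.18 to 2.65). Between the labels the foot libraries did not separate, with a log2 ratio of 0.04 (-0.19 to 0.26) that is -0.20 as deposited. In the back the ratio was 0.52 (0.28 to 0.77), with bounds that do not overlap, but neither back value reached 5 FPKM.

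Tgfb3, at chr12:87397694-87419991, encodes the ligand known for its part in palate fusion. Its levels were 13.5 FPKM (11.6 to 15.5) and 19.3 FPKM (17.7 to 20.9) in the foot libraries labelled Axin2-pos and Axin2-neg, and 0.985 FPKM (0.797 to 1.17) and 1.08 FPKM (0.858 to 1.30) in the back libraries in the same order. Foot and back stood far apart and the labels close together. The log2 ratio of foot against back was 2.66 (2.42 to 2.90) for the Axin2-pos label and 2.72 (2.52 to 2.94) for the Axin2-neg label, or 11.2-fold and 10.7-fold in scaled FPKM. Between labels it was -0.23 (-0.47 to -0.02) in the foot and -0.18 (-0.40 to 0.05) in the back. Ttll5 overlaps the gene's locus in the files and was at most 2.19 FPKM, in the foot library labelled Axin2-pos, and listed at 0 in the others.

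Tgfb1, at chr7:26472021-26490096, encodes the ligand that blood and immune cells make in quantity. Its levels were the lowest of the 3 Tgfb genes in the foot: 0.208 FPKM (0 to 1.76) in the library labelled Axin2-pos and 0.527 FPKM (0.132 to 1.48) in the one labelled Axin2-neg. In the back it reached 1.33 FPKM (0.878 to 1.78) and 2.36 FPKM (1.70 to 3.02) in the same order. Both back values lay above both foot values, where Tgfb2 and Tgfb3 had the foot above the back, and the back library labelled Axin2-neg was highest, although the bounds of the foot library labelled Axin2-neg and the back library labelled Axin2-pos overlap. No value reached 5 FPKM, so Tgfb1 entered no count. The ratios of foot against back were -1.07 (-1.43 to 0.11) and -1.52 (-1.96 to -0.82) for the Axin2-pos and Axin2-neg labels. The leukocyte markers, with a sum of 23.6 FPKM, and Tgfb1 were both highest in the back library labelled Axin2-neg. So was the erythroid marker Alas2, which was listed at 0 in both foot libraries and stood at 3.28 and 12.7 FPKM in the back libraries labelled Axin2-pos and Axin2-neg. Mast cell markers peaked elsewhere, at 265 FPKM in the foot library labelled Axin2-neg against 85.7 FPKM in the back library labelled Axin2-neg. Whether any of these cells gave the Tgfb1 reads was not tested.

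The ligand pool therefore had another make-up in each skin. Summed over Tgfb1, Tgfb2 and Tgfb3, levels were 31.2 and 40.0 FPKM in the foot libraries labelled Axin2-pos and Axin2-neg, and 5.36 and 5.07 FPKM in the back libraries. Tgfb1 made up 0.668% (0 to 6.18% from the bounds) and 1.32% (0.305 to 3.96%) of this sum in the foot, against 24.8% (16.0 to 34.1%) and 46.5% (34.2 to 58.2%) in the back. Tgfb3 made up 43.4% and 48.2% in the foot, against 18.4% and 21.3% in the back. The share of Tgfb2 was 55.9% and 50.4% in the foot, and 56.8% and 32.2% in the back, where it stood apart between the labels. Shares within a library do not depend on the scaling between libraries.

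**Figure D2:**
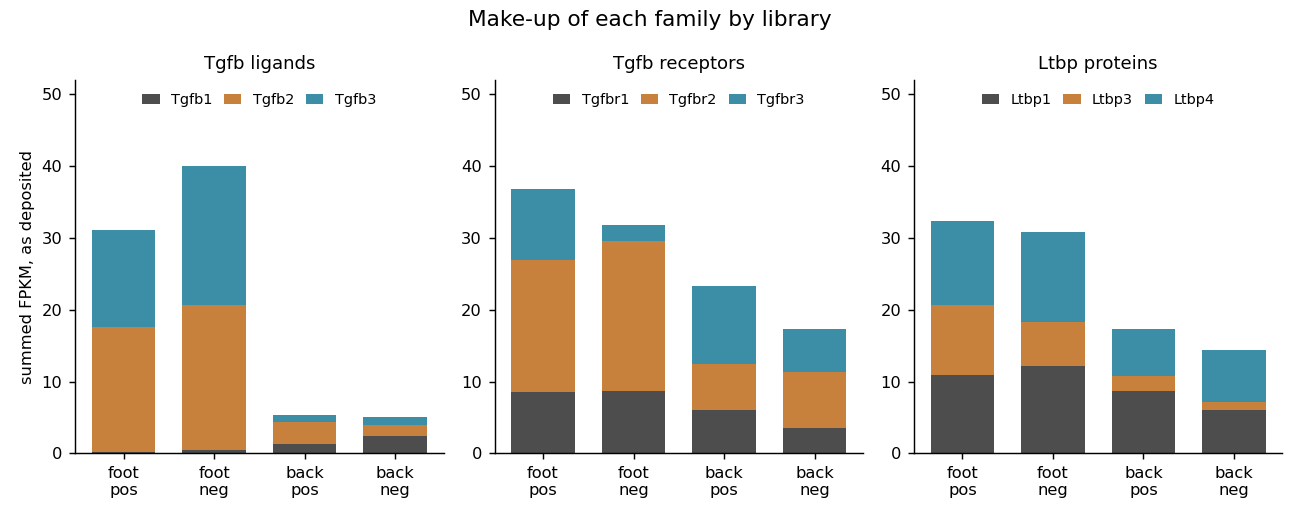
Summed deposited FPKM (y axis, from 0) of the Tgfb ligand genes, the Tgfb receptor genes and the Ltbp genes in each library (x axis), stacked by gene. The ligand sums are 31.2 and 40.0 FPKM in the foot against 5.36 and 5.07 FPKM in the back, and the receptor and Ltbp sums differ less.

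Inhba, at chr13:16103684-16119044, encodes the beta A subunit of activin A, a ligand that signals through activin receptors to the same SMADs and that follistatin binds. Its level was 0.155 FPKM (0 to 0.774) in the foot library labelled Axin2-pos, 4.31 FPKM (3.20 to 5.42) in the foot library labelled Axin2-neg, 6.002 FPKM (5.24 to 6.77) in the back library labelled Axin2-pos and 4.46 FPKM (3.81 to 5.11) in the back library labelled Axin2-neg. After scaling, the foot library labelled Axin2-neg lay below both back libraries, beyond the bounds. The foot library labelled Axin2-pos was lowest of all, with bounds below those of every other library. Against the back library of the same label its log2 ratio was -2.76 (-3.01 to -2.16), which counts as lower. Between the foot libraries the ratio was -1.91 (-2.23 to -1.25) with bounds that do not overlap, but the larger value missed 5 FPKM. In the back the labels differed by 0.21 (-0.03 to 0.45), within the interval around 0, and the Axin2-neg label gave -0.64 (-1.003 to -0.32) for foot against back, which is -0.04 as deposited.

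The low Inhba value comes with a possible limit of the gene model. The Inhba locus spans 15361 bases in the foot files, while GENCODE vM21 gives the gene 19771 bases on another build, and all 4 libraries hold unnamed entries within 5000 bases past the end of the locus. In the foot library labelled Axin2-pos such an entry, 232 bases long, is given 133 FPKM with bounds of 18.6 to 44.2, which do not include it. Adding these entries by length, at the midpoint of their bounds, puts Inhba at 1.29, 4.54, 6.70 and 4.86 FPKM in the order foot positive, foot negative, back positive, back negative. The foot library labelled Axin2-pos is still lowest, with log2 ratios of -1.97 against the back library of the same label and -1.03 against the other foot library.

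Tgfbr2, at chr9:115993415-116084383, encodes the type II receptor that binds the ligand first. Its levels were 18.4 FPKM (16.8 to 19.95) and 20.9 FPKM (19.7 to 22.1) in the foot libraries labelled Axin2-pos and Axin2-neg, and 6.49 FPKM (6.12 to 6.88) and 7.75 FPKM (7.20 to 8.31) in the back libraries. Both foot values exceeded both back values. The log2 ratio of foot against back was 1.10 (0.96 to 1.23) for the Axin2-pos label, which counts as higher, and 0.63 (0.51 to 0.76) for the Axin2-neg label, which does not. As deposited the ratios were 1.37 and 1.32, so the call for the Axin2-neg label rests on the scaling. Between labels the ratio was 0.07 (-0.07 to 0.21) in the foot, -0.17 as deposited, and -0.40 (-0.51 to -0.27) in the back.

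Tgfbr1, at chr4:47366094-47427803, encodes the type I receptor kinase that phosphorylates SMAD2 and SMAD3. Its levels were 8.55 FPKM (7.03 to 10.6), 8.69 FPKM (7.64 to 9.92), 6.02 FPKM (5.57 to 6.51) and 3.53 FPKM (3.17 to 4.02) in the order foot positive, foot negative, back positive, back negative. It differed from the other receptor genes in that no pair of libraries compared reached a 2-fold scaled ratio. The largest was 0.49 (0.31 to 0.66) between the back labels, and foot against back gave 0.18 (-0.09 to 0.48) and 0.47 (0.25 to 0.68) for the Axin2-pos and Axin2-neg labels. As deposited the last value is 1.10.

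Tgfbr3, at chr5:107535589-107718648, encodes betaglycan. Its level was 9.87 FPKM (7.10 to 12.8) in the foot library labelled Axin2-pos, 2.30 FPKM (1.82 to 3.03) in the foot library labelled Axin2-neg, 10.8 FPKM (9.73 to 11.9) in the back library labelled Axin2-pos and 6.05 FPKM (5.46 to 6.71) in the back library labelled Axin2-neg. Within each skin the library labelled Axin2-pos was the higher one, and the foot library labelled Axin2-neg was the lowest of all. The log2 ratio between labels was 1.86 (1.36 to 2.26) in the foot, 5.13-fold in scaled FPKM, and 0.59 (0.40 to 0.78) in the back. Foot against back gave -1.67 (-1.91 to -1.37) for the Axin2-neg label, which counts as lower, and -0.39 (-0.83 to -0.02) for the Axin2-pos label.

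Unnamed entries lie over the Tgfbr3 locus in every library, and whether they belong to its transcript was not tested. The gene lies on the minus strand, and every library holds unnamed entries at its 3′ end. These reach 52.3 FPKM (374 bases) and 9.33 FPKM (1085 bases) in the foot library labelled Axin2-neg, and 36.4 FPKM (552 bases) and 79.8 FPKM (341 bases) in the one labelled Axin2-pos. In the back the entry is longer and lower, at 7.04 FPKM over 3393 bases (labelled Axin2-pos) and 4.66 FPKM over 3160 bases (labelled Axin2-neg). Adding all unnamed entries over the gene by length, at the midpoint of their bounds, would give 18.9, 5.98, 16.9 and 9.14 FPKM. The order is foot positive, foot negative, back positive, back negative. The ratio between the foot labels is then 1.71 and that of foot against back for the Axin2-neg label is -1.19. With the deposited FPKM of the entries of at least 300 bases in place of the midpoint these are 1.30 and -0.89, and the second no longer counts as lower.

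**Figure D3:**
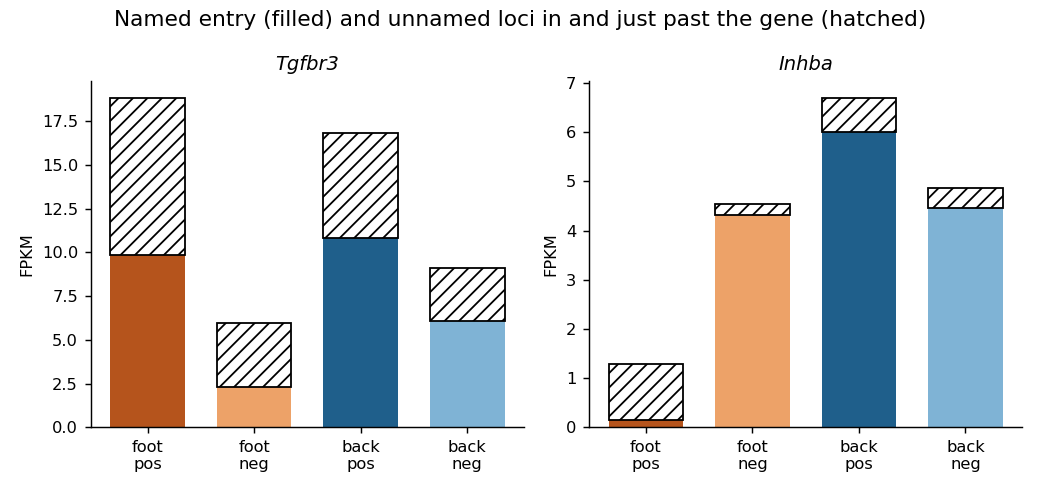
FPKM (y axis, from 0) of Tgfbr3 and Inhba in each library (x axis): the named entry as deposited (filled) and the unnamed loci inside the gene or within 5000 bases past its 3′ end, added by length at the midpoint of the authors' bounds (hatched). The foot library labelled Axin2-neg stays lowest for Tgfbr3 (5.98 FPKM in all) and the foot library labelled Axin2-pos stays lowest for Inhba (1.29 FPKM in all). Whether the unnamed loci belong to these genes was not tested.

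The receptor make-up differed by library through Tgfbr2 and Tgfbr3. Tgfbr2 made up 65.5% (60.4 to 70.0%) of the receptor sum in the foot library labelled Axin2-neg and 27.8% (24.9 to 31.0%) in the back library labelled Axin2-pos, the extremes, and 49.9% and 44.7% in the foot library labelled Axin2-pos and the back library labelled Axin2-neg. Tgfbr3 made up 7.23% (5.40 to 9.98%) in the foot library labelled Axin2-neg and 46.4% (42.1 to 50.5%) in the back library labelled Axin2-pos. Tgfbr1 stayed between 20.4% and 27.3% of the sum in all 4 libraries. The unnamed entries described above are not in these shares, and they would raise that of Tgfbr3 if they belong to it.

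Ltbp3, at chr19:5740904-5758688, encodes a latency protein known from human bone and tooth disorders. Its levels were 9.64 FPKM (8.33 to 11.0) and 6.09 FPKM (5.39 to 6.79) in the foot libraries labelled Axin2-pos and Axin2-neg, and 2.09 FPKM (1.87 to 2.31) and 1.03 FPKM (0.862 to 1.19) in the back libraries. All 4 libraries separated beyond the bounds, in the order foot positive, foot negative, back positive, back negative. Foot against back gave a log2 ratio of 1.55 (1.33 to 1.75) for the Axin2-pos label and 1.29 (1.10 to 1.48) for the Axin2-neg label. The library labelled Axin2-pos was higher in both skins, by 0.80 (0.57 to 1.02) in the foot and 0.54 (0.37 to 0.71) in the back, both under 2-fold.

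Ltbp1 and Ltbp4 varied little. Ltbp1, at chr17:75404908-75791852, encodes the first described member of the family, and its levels were 11.0 FPKM (8.82 to 13.2), 12.2 FPKM (10.9 to 13.6), 8.63 FPKM (8.06 to 9.26) and 6.08 FPKM (5.56 to 6.65) in the order foot positive, foot negative, back positive, back negative. Ltbp4, at chr7:28090155-28122711, encodes a protein needed for elastic fibre assembly, and its levels were 11.8 FPKM (9.31 to 14.3), 12.5 FPKM (10.6 to 14.4), 6.63 FPKM (6.04 to 7.22) and 7.24 FPKM (6.41 to 8.24) in that order. The deposited values were higher in the foot for both genes. Scaling took the log2 ratio of foot against back for Ltbp1 from 0.31 to 0.04 (Axin2-pos label) and from 0.90 to 0.23 (Axin2-neg label), and for Ltbp4 from 0.75 to 0.48 and from 0.71 to 0.04. The scaled log2 ratios over the 4 comparisons ran from 0.04 to 0.29 for Ltbp1 and from -0.28 to 0.48 for Ltbp4. The share of Ltbp3 in the sum of the 3 Ltbp genes was 29.8% and 19.8% in the foot and 12.1% and 7.14% in the back, for the labels Axin2-pos and Axin2-neg, and Ltbp1 and Ltbp4 shared the rest.

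**Figure D4:**
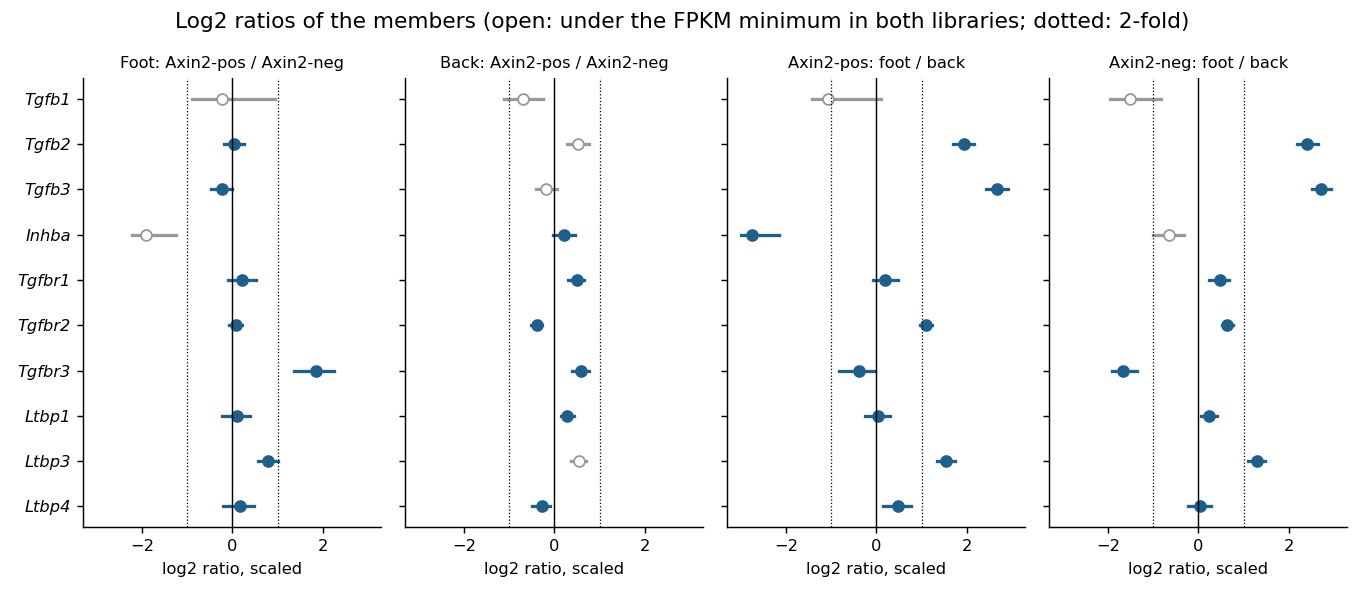
Scaled log2 ratios (x axis) of the 10 members (y axis) in the 4 comparisons, with intervals from the authors' bounds. Filled points have at least 5 FPKM in the larger library, open points do not, and the dotted lines mark 2-fold. In the foot Tgfbr3 stands apart at 1.86, in the back no member passes 2-fold, and between foot and back Tgfb2, Tgfb3 and Ltbp3 are higher for both labels.

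Within a skin the counts of members past 2-fold were near the share of all genes. In the foot 8 members reached 5 FPKM in a library and 1, Tgfbr3, was higher in the library labelled Axin2-pos, against 10.9% of all 8023 genes tested. No member was lower, against 10.8% of all genes. The scaled bounds of 2 members (Tgfbr3 and Ltbp3) did not overlap, against 37.6% of all genes, and the median log2 ratio was 0.13 against 0.00 over all. Of all genes counted in the foot, 50.3% were higher after scaling and 35.2% as deposited. In the back 6 members were tested and none was higher or lower, against 4.6% and 3.67% of 6736 genes. Bounds of 5 members (Tgfbr1, Tgfbr2, Tgfbr3, Ltbp1 and Ltbp4) did not overlap, against 40.2% of all genes, although all their ratios were under 2-fold. The median was 0.25 against 0.00, and 55.7% of the genes counted were higher after scaling and 66.7% as deposited.

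Between foot and back more members passed 2-fold. For the Axin2-pos label 9 members were tested. Tgfb2, Tgfb3, Tgfbr2 and Ltbp3 were higher in the foot, 4 of 9 against 14.8% of 7815 genes, and Inhba was lower, 1 of 9 against 15.6%. Bounds of 6 members did not overlap, against 54.9% of all genes, and the median ratio was 0.48 against 0.05. For the Axin2-neg label Tgfb2, Tgfb3 and Ltbp3 were higher, 3 of 8 against 14% of 7772 genes, and Tgfbr3 was lower, 1 of 8 against 13%. Bounds of 6 members did not overlap, against 60.9%, and the median was 0.55 against 0.07. As deposited Tgfbr1 and Tgfbr2 also pass 2-fold for the Axin2-neg label. Of all genes counted, 48.7% (Axin2-pos label) and 51.7% (Axin2-neg label) were higher in the foot after scaling, and 65.1% and 87.7% as deposited. Tgfb2, Tgfb3 and Ltbp3 reached 5 FPKM only in the foot, where they were higher. Inhba (Axin2-pos label) and Tgfbr3 (Axin2-neg label) reached it only in the back. These counts and medians therefore cannot show an excess over all genes. Each comparison within a skin shares a library with each comparison between skins, so the counts are not independent of each other.

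The foot and back label ratios were also set against each other, a contrast added with earlier results of these data known. Tgfbr3 had the larger label ratio in the foot, by 1.27 on the log2 scale (interval 0.74 to 1.71), where 12.8% of 8617 genes were at least 2-fold higher. Inhba had the lower one, by -2.12 (-2.52 to -1.42), where 14.4% of genes were at least 2-fold lower. As deposited the Tgfbr3 difference was 0.98, just under 2-fold, and with the unnamed entries it was 1.06 at the midpoint of their bounds and 0.62 by their FPKM. For Inhba the unnamed entries gave -1.28 at the midpoint of their bounds. By their FPKM the difference was -2.12, but only entries of at least 300 bases were added. The foot entries past Inhba, of 232 and 108 bases, are left out by that rule, so -2.12 does not show their effect. The other 8 members lay between -0.48 and 0.47.

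Genes of similar profile were sought among 4600 genes of at least 5 FPKM in every library, by the root mean square distance between centred log2 profiles over the 4 libraries. With 4 points per profile many genes come close, and nearness says nothing of function. Nearest to Tgfb2 were Fbln5, an elastic fibre gene, at a distance of 0.09, and Gm7676 at 0.10. Tgfb3 was nearest S100a6, a calcium-binding protein gene (0.08), and Mfap4, a microfibril gene (0.09). Ltbp3 was nearest Cd44, the hyaluronan receptor gene (0.05), and Abcd3, a peroxisomal transporter gene (0.09). The nearest to Tgfbr2 were Gm15504 (0.04) and Gm14039 (0.06), to Tgfbr3 Snrnp70 (0.12) and Kif20a (0.14), and to Inhba Mapre1 (0.10) and Gm9329 (0.14). Among the members themselves Tgfbr1 and Ltbp1 were closest, at 0.13, and Tgfb2 and Tgfb3 lay 0.37 apart, while Tgfb3 and Inhba were farthest, at 2.28.

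The other secreted regulators of the pathway were higher in the foot than in the back wherever they were counted. Among 9 antagonist and binding protein genes, 2 of 4 tested were higher in the foot for the Axin2-pos label and 4 of 5 for the Axin2-neg label, and none was lower, against 14.8% and 14% of all genes higher. The median ratios were 1.03 and 1.25, against 0.05 and 0.07 over all genes. Fst for both labels, and Fstl3 for the Axin2-neg label, reached 5 FPKM only in the foot. These counts and medians therefore cannot show an excess. Follistatin, the activin-binding product of Fst, had a transcript level that stood at 69.8 and 41.3 FPKM in the foot libraries labelled Axin2-pos and Axin2-neg and at 2.53 and 2.36 FPKM in the back, with log2 ratios of foot against back of 4.07 and 3.02. Bgn, which encodes the TGF-beta-binding proteoglycan biglycan, gave 1.27 and 1.25, and Fstl1, a follistatin-like gene, 0.79 and 2.56. Fstl3, which encodes another activin-binding protein, counted for the Axin2-neg label at 1.05. Within a skin 1 gene of the list counted: Fstl1 was higher in the back library labelled Axin2-pos (1.39). Fst lay at 0.99 in the foot, just under 2-fold, in the library where Inhba was lowest.

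A pair of activin receptor genes was higher in the foot library labelled Axin2-pos. The list held 12 genes of activins, related ligands and receptors, of which 11 had a value and 3 were tested in the foot. Acvr2b, an activin type II receptor gene, was 6.77 FPKM (3.22 to 10.3) in the foot library labelled Axin2-pos. In the one labelled Axin2-neg it was 0.234 FPKM, a log2 ratio of 2.61 (1.68 to 3.19). Acvr1, a type I receptor gene, was 9.14 (4.89 to 13.4) and 3.17 FPKM, a ratio of 1.45 (0.62 to 2.05). So 2 of 3 were higher, against 10.9% of all genes. Each of the 2 reached 5 FPKM only in the library where it was higher, so this count cannot show an excess. The third, Acvr2a, another type II receptor gene, lay the other way at 3.84 and 6.14 FPKM (-0.34). The receptor gene Acvr1b stood at 0 and 0.0282 FPKM in the foot libraries labelled Axin2-pos and Axin2-neg, and Acvr1c at 0 in each. Acvr2b was also higher in the foot for the Axin2-pos label (1.73), the single call between skins in this list. In the back no gene of the list reached 5 FPKM, and Inhbb, the beta B subunit gene, stood highest among its ligands at 4.58 and 2.58 FPKM.

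The genes of latency, activation and storage went both ways. Of 19 genes 18 had a value and 10 were tested in each comparison. Fbn1, which encodes the fibrillin that holds the latent complex, was 8.08 FPKM in the foot library labelled Axin2-pos, 58.8 in the foot library labelled Axin2-neg, 18.1 in the back library labelled Axin2-pos and 6.29 in the back library labelled Axin2-neg. Its label ratio was -2.45 in the foot and 1.24 in the back, and its ratio of foot against back was -1.35 and 2.34 for the Axin2-pos and Axin2-neg labels. Plat, the tissue plasminogen activator gene, was lower in the foot library labelled Axin2-pos than in the other foot library (-1.79) and than in the back library of its label (-2.30). Thbs1, which encodes the activator thrombospondin-1, was higher in the foot library labelled Axin2-pos than in the other (1.30) and lower in the foot for the Axin2-neg label (-1.74). Mmp2 (1.94) and Itgav (1.09), a gelatinase and an integrin subunit gene, were higher in the foot for the Axin2-neg label. In all, 1 was higher and 2 lower between the foot labels (median -0.04), 1 higher between the back labels (0.44), 2 lower between the skins for the Axin2-pos label (-0.36), and 3 higher and 1 lower for the Axin2-neg label (0.07). Over all genes the shares in that order were 10.9% and 10.8%, 4.6%, 15.6%, and 14% and 13%, so most of these counts are near the share of all genes.

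Few of the Smad genes and their regulators were counted. Of 13 genes, 12 with a value, none was counted between labels, with 10 tested in the foot and 6 in the back, and 2 were higher in the foot for each label (of 10 and 9 tested, against 14.8% and 14% of all genes, a share near theirs). Smad7, the inhibitory Smad that TGF-beta signalling induces, stood at 7.25 and 9.75 FPKM in the foot libraries labelled Axin2-pos and Axin2-neg and at 2.11 and 1.74 FPKM in the back, with ratios of foot against back of 1.18 and 1.39. Skil, a Smad repressor gene that the signal also induces, was higher for the Axin2-pos label (1.53), and Smurf2, a ubiquitin ligase gene of the pathway, for the Axin2-neg label (1.02). Smad2, Smad3 and Smad4, the signal carriers, lay between -0.42 and 0.83 in the 4 comparisons.

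Among 22 genes known to respond to TGF-beta, Smad7 and Skil again among them, 6 were higher and 3 lower in the foot for the Axin2-pos label (17 tested), and 7 higher and 4 lower for the Axin2-neg label (16 tested), against 14.8% higher and 15.6% lower, and 14% and 13%, of all genes. The medians were 0.28 and 0.29, against 0.05 and 0.07 over all genes. Some of these genes, such as Ctgf, Smad7 and Acta2, reached 5 FPKM only in the skin where they were higher. The counts and medians therefore cannot show an excess. Postn, which encodes the matrix protein periostin, was 784 and 687 FPKM in the foot libraries labelled Axin2-pos and Axin2-neg and 94.6 and 45.6 FPKM in the back, ratios of 2.74 and 3.14. Ctgf, a matricellular growth factor gene, was 12.3 and 12.5 against 1.14 and 0.565 FPKM, ratios of 2.43 and 2.61, and Tgfbi, a secreted adhesion protein gene, gave 2.36 and 2.64. The contractile gene Acta2 went the other way, at 1.67 and 1.98 FPKM in the foot against 21.9 and 13.7 FPKM in the back, ratios of -3.34 and -2.88. Fn1, the fibronectin gene, was lower in the foot for the Axin2-neg label (-2.79). Tagln, another contractile gene, is counted as higher in 2 comparisons because it is listed at 0 in the back library labelled Axin2-neg, and no ratio is given for it.

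Between labels the response genes split within the collagen pair. In the foot Fn1 (3.25) and Col1a2 (1.96) were higher in the library labelled Axin2-pos and Col1a1 was lower (-1.18), although Col1a1 and Col1a2 encode chains of the same collagen. In the back Tagln, as said, and Fn1 (1.14) were higher in the library labelled Axin2-pos and Cdkn1a, a cell cycle inhibitor gene, was lower (-1.29). In the foot this made 2 higher and 1 lower of 16 tested, against 10.9% and 10.8% of all genes, so these counts are near the share of all genes. In the back it made 2 higher and 1 lower of 13 tested, against 4.6% and 3.67%. The medians were 0.23 in the foot and 0.51 in the back, each against 0.00 over all genes.

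**Figure D5:**
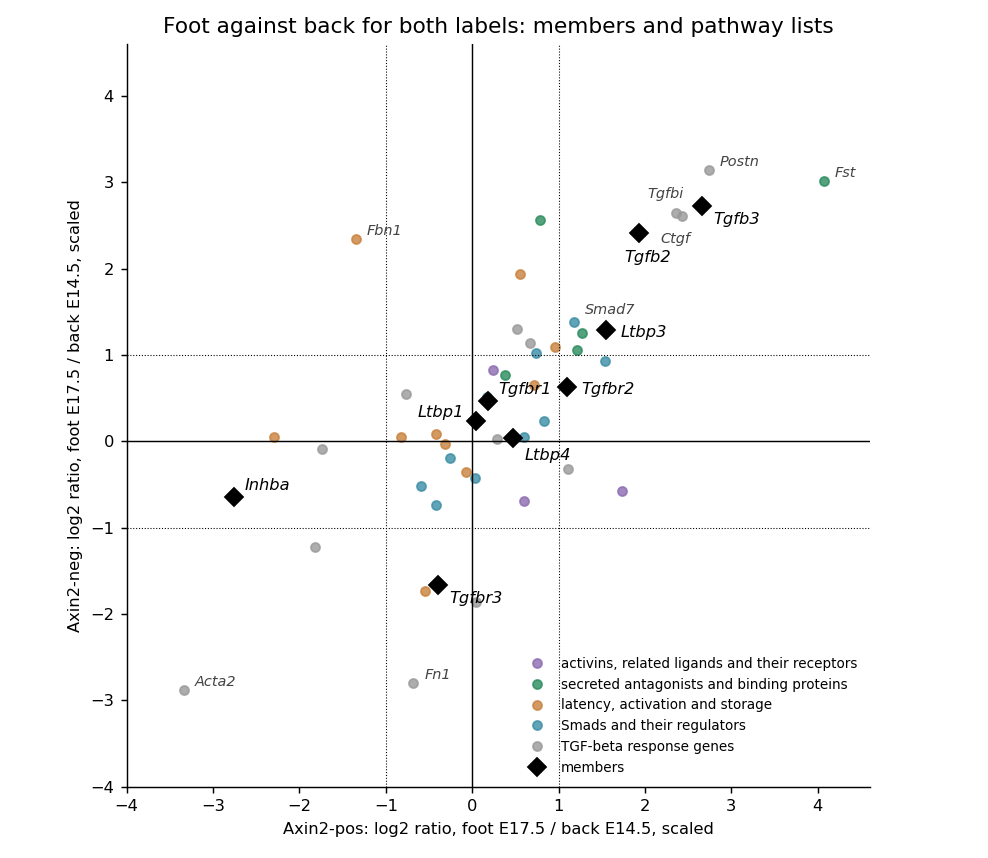
Scaled log2 ratio of foot against back for the libraries labelled Axin2-pos (x axis) and Axin2-neg (y axis), for the members (diamonds) and the pathway lists (circles), where the larger FPKM reached 5 in either comparison. Dotted lines mark 2-fold, and genes listed at 0 in a library are left out. Tgfb2, Tgfb3 and Ltbp3 lie beyond 2-fold for both labels beside Fst, Postn and Ctgf, while Inhba passes it for the Axin2-pos label and Tgfbr3 for the Axin2-neg label.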

How the data were processed

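Messenger RNA of 4 sorted dermal libraries was sequenced from TruSeq mRNA libraries on a HiSeq instrument, per the labels' protocols. The authors used TopHat and Cufflinks on mm9, per the submitters' processing notes, and deposited FPKM values with bounds and a status. The sources used here do not give versions, settings or the annotation, and read counts were not used. Entries of the same symbol were summed, and 455 units without an OK status in every library were left out of the comparisons. Scaling factors (1.10, 1.31, 0.890 and 0.783 in the order foot Axin2-pos, foot Axin2-neg, back Axin2-pos, back Axin2-neg) are median ratios over 4834 genes of at least 5 FPKM in all libraries. The pseudocount was 1. Genes named are all members, Axin2, genes of the pathway lists counted in a comparison (up to 4 per list and comparison), marker genes and the 2 nearest profiles. The members and lists were chosen with earlier results of these data known. Ttll5, Inhbb, Acvr1b, Acvr1c, Acvr2a, Smad2, Smad3 and Smad4 were named outside the rule after values were seen. Unnamed loci were weighed with transcript lengths of GENCODE vM21. Python 3.11.15, pandas 2.3.3 and numpy 2.4.6 were used, and the scripts were tested on simulated data. Alternatives covered scaling, pseudocount, filters, call rules and, added after seeing the data, the unnamed loci. Some items are not reported here.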

Additional observations from a re-analysis of the deposited data

Results flagged for a closer look

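The label ratio of Inhba was -1.91 between the foot libraries and 0.21 between the back libraries, where the interval (-0.03 to 0.45) includes 0, a difference of -2.12 on the log2 scale. With 1 library per group this difference was not tested. Its foot value for the Axin2-pos label is low while an unnamed entry of 232 bases stands past the gene's end in the same library.

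Signal also appeared in entries that carry no gene name. They entered no main comparison and were added to the members only in the alternatives described above. Past the end of Inhba (mm9), they were 133 FPKM at chr13:16123100-16123331 in the foot library labelled Axin2-pos and 414 FPKM at chr13:16121081-16121188, over 108 bases, in the one labelled Axin2-neg. In the back library labelled Axin2-pos they were 27.9, 5.84 and 3.87 FPKM, and in the one labelled Axin2-neg 2.98 FPKM. Several of the short entries have an FPKM above their own bounds (4.81 to 21.6 for the 414 FPKM).

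At the 3′ end of Tgfbr3 the foot library labelled Axin2-pos held 36.4 FPKM at chr5:107535603-107536154 and 79.8 FPKM at chr5:107536331-107536671, and the one labelled Axin2-neg 52.3 and 9.33 FPKM. The back libraries labelled Axin2-pos and Axin2-neg held 7.04 FPKM at chr5:107535590-107538982 and 4.66 FPKM at chr5:107535592-107538751. Whether these entries belong to the Tgfbr3 transcript was not tested.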

How the results depend on the processing

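No paired analysis was possible because each group has 1 library. Of 280 alternative log2 ratios of the members, 227 lay inside the main interval, 53 outside, and no called ratio reversed. With a pseudocount of 5 the members counted between foot and back fell from 5 to 3 for the Axin2-pos label and from 4 to 2 for the Axin2-neg label (Tgfb2 and Tgfb3 left). With a larger FPKM of at least 1, or with no filter, 2 members counted in the foot, Inhba joining Tgfbr3, and Tgfb1 joined as lower in both foot against back comparisons (6 and 5 members in all). As deposited, without scaling, 6 members counted for the Axin2-neg label between foot and back. Of sign changes there were 5, in small ratios. Low values are the least precise: Tgfb1 in the foot library labelled Axin2-pos has a half-width of 422% of its FPKM.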
